A study of Homo sapiens with 8 samples.

Results

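The genes described here are 9 adhesion molecules of the leukocyte surface, ICAM1, ICAM2, ICAM3, JAM3, F11R, PECAM1, CD47, CD58 and SELPLG, followed through depletion of the RUNX1/ETO fusion transcript. They were chosen by name, with earlier results of these data known, as all probes whose symbol in the platform annotation is one of these genes. This gave 10 of 47230 probes, which read 8 of the 9 genes; no probe is named F11R in the annotation used here. The cells were Kasumi-1, a cell line of human acute myeloid leukaemia. Its t(8;21) translocation fuses RUNX1, a transcription factor gene, with RUNX1T1, which encodes the corepressor ETO. Electroporation brought 200 nM siRNA into the cells, directed at RUNX1/ETO in the siRE arm and a mismatch sequence in the siMM arm, so both arms carry the fusion gene and went through electroporation. Transcripts were measured by Illumina bead array 48 and 96 h after the first electroporation, at 168 h (72 h after the second) and at 240 h (72 h after the third). There were 8 arrays, 1 for each siRNA and time, from a single cell line. Times were not replicated, and a mean ± SD below is over the 4 times of an arm. The labels do not say whether the times were separate cultures. The p-values therefore measure only how these arrays vary, which may be technical. For siRE against siMM this is the spread of their difference between the 4 times. A change of that difference with time also enters this spread and raises the SE.

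Adhesion molecules of this kind let a blood cell hold on to vessel walls, to other leukocytes and to stroma. The ICAM proteins and JAM3 have extracellular immunoglobulin domains that leukocyte integrins bind, PECAM1 binds itself on the neighbouring cell, and CD58 binds CD2 on lymphocytes. SELPLG carries the sugars that selectins hold during rolling. CD47 is bound by SIRPA on macrophages, a contact known to restrain phagocytosis. In blood formation their levels change as progenitors leave the marrow niche and mature.

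Values are the deposited normalized signals on a log scale, treated here as log2, with a background cut-off of 5.90. A fold holds only if the scale is plain log2, which the sources used here do not state. Signals of different probes are not compared as levels. RUNX1T1, read for the fusion, was 7.48 ± 0.26 in siRE and 8.87 ± 0.26 in siMM (SD, n = 4 arrays each; difference -1.38, limma adjusted p = 0.000199). A second RUNX1T1 probe near background, above it on 2 siRE arrays and on no siMM array, read 5.80 ± 0.31 in siRE and 5.51 ± 0.18 in siMM and did not pass (difference 0.28, limma adjusted p = 0.262). Of 8 listed Kasumi-1 markers, 7 had a probe. CD34, KIT, MPO, ANPEP and RUNX1T1 were above background on all 8 arrays and CD38 on 2, while PTPRC was not on any. ANPEP and CD38 differed by 0.08 and 0.15 (limma adjusted p = 0.763 and 0.637). CD34, a progenitor surface marker, fell to 9.70 in siRE, against 11.57 in siMM (difference -1.87, limma adjusted p = 0.00957), while KIT and MPO differed by -0.13 and -0.11 (limma adjusted p = 0.663 and 0.649). Of 30 marker genes of 6 other lineages with a probe, 6 were above background on at least 2 arrays: CD2, CD8A, CD79A, CD79B, PPBP and GP1BA. All 7 endothelial markers, CDH5, VWF and KDR among them, were below it. Their mean level was 4.89 to 4.96 over the siRE arrays and 4.84 to 5.01 over the siMM arrays. CD79B, a B cell receptor chain, was above it on all 8 arrays, at 7.51 in siRE and 7.99 in siMM (limma adjusted p = 0.0636); the part of these markers in the member results was not tested.

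Of the 10 probes, 7 were above background on at least 2 arrays and were tested, for 6 genes. Compared with siMM, ICAM3 and CD47 were higher in siRE, and JAM3 and PECAM1 were lower. ICAM2 and both probes of CD58 did not pass the test. These 4 of 7 tested probes stand beside 6.03% of all 14707 tested probes past the same threshold, 3.26% higher and 2.77% lower in siRE (limma, Benjamini-Hochberg adjusted p under 0.05, arrays paired by time). Because the genes were chosen with earlier results of these data known, this comparison is no test of the set. ICAM1, SELPLG and a second CD47 probe were below the cut-off on all 8 arrays. In RNA of a whole culture, fewer cells that carry a transcript and less of it per cell cannot be told apart.

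**Figure D1:**
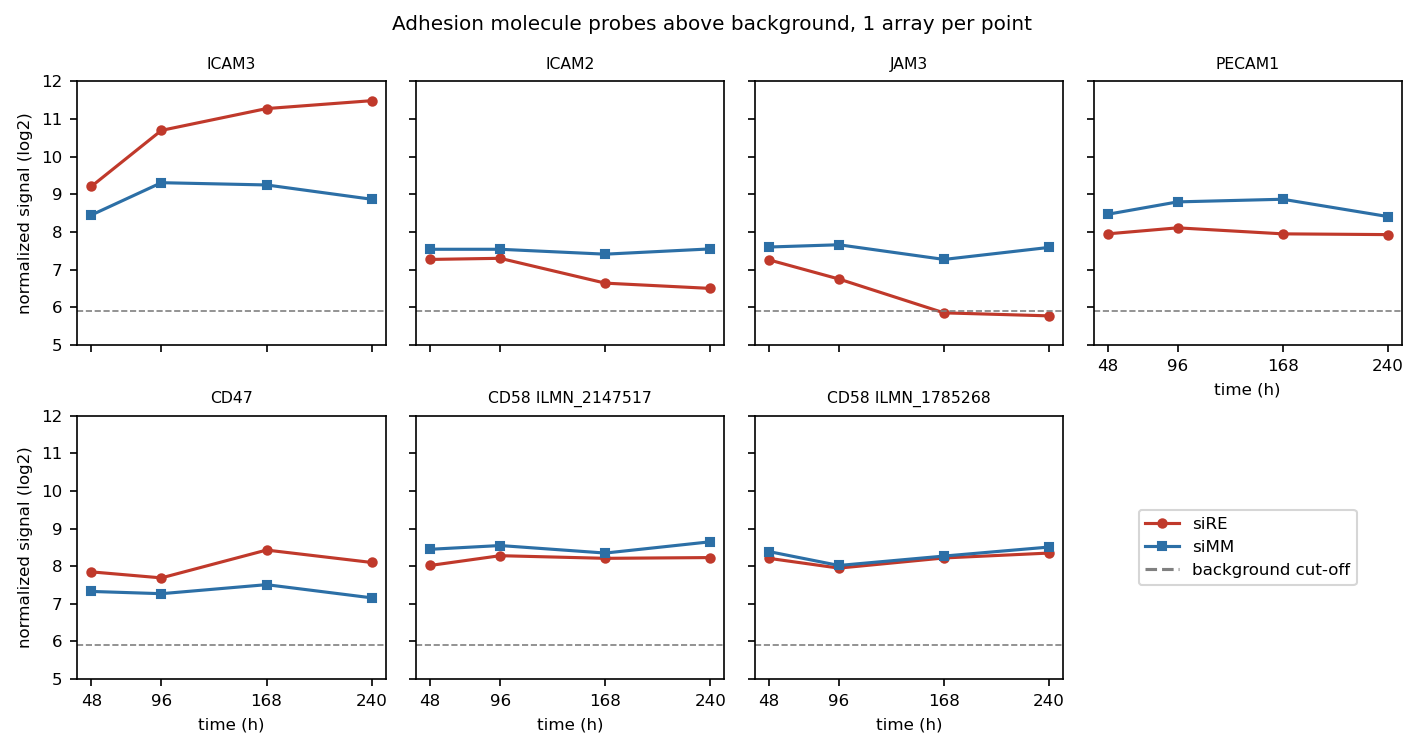
Normalized signal (log2) against time for the 7 tested probes, with 1 point per array, siRE as circles and siMM as squares. The dashed line is the background cut-off of 5.90. ICAM3 climbed to 11.49 in siRE at 240 h, JAM3 lay below the cut-off in siRE at 168 and 240 h, and CD58 stayed close in both arms.

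ICAM3 is an integrin ligand that resting leukocytes carry, and of the 7 tested probes it differed most. It read 9.21, 10.70, 11.28 and 11.49 in siRE at 48, 96, 168 and 240 h, against 8.45, 9.31, 9.25 and 8.87 in siMM. Each siRE array was above the siMM array of the same time, although the siRE array of 48 h lay just under the siMM arrays of 96 and 168 h, so the arms overlap. Over the 4 times the mean was 10.67 ± 1.03 in siRE and 8.97 ± 0.40 in siMM, a rise of 1.70 (SE 0.24, 95% interval 1.16 to 2.24, limma adjusted p = 0.00228), or 3.25-fold. Among 8866 genes represented by their brightest probe, ICAM3 had rank 43 counted from the highest difference. Its call held under all 12 alternative settings, at limma adjusted p between 8.05e-05 and 0.0349.

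The difference of ICAM3 grew with time, from 0.75 at 48 h through 1.39 and 2.03 to 2.63 at 240 h. Both arms moved in the last step: from 168 to 240 h siRE went from 11.28 to 11.49, and siMM from 9.25 to 8.87. Per day it grew by 0.230 (SE 0.040, limma adjusted p = 0.0223 for the siRNA by day interaction), where 0.918% of all tested probes passed that test in either direction. The number of electroporations was 1 at 48 and 96 h, 2 at 168 h and 3 at 240 h. Elapsed time and repeated siRNA therefore cannot be told apart in any slope given here. From 48 to 96 h, with 1 electroporation at both, the ICAM3 difference went from 0.75 to 1.39, a step that was not tested. The slope within siRE was 0.264 per day (SE 0.056, limma adjusted p = 0.0365), a test that 2.02% of all tested probes passed, and within siMM it was 0.034 per day (SE 0.056, limma adjusted p = 1). The interaction lost its call when time was not a block (limma adjusted p = 0.382), with values below the cut-off set to it (0.0636), and without the arrays of 48, 96 or 240 h (0.115, 0.0803 and 0.0878).

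The 250 bases before the start of the ICAM3 gene are shown because this member differed most and RefSeq lists a promoter for it. They are chr19:10339625-10339874 of GRCh38.p14, minus strand, from RefSeq, and capitals mark a match to the C/EBP-type motif TTGCNNAA, read on the opposite strand, whose first base lies at -91.0 from the start.
ICAM3: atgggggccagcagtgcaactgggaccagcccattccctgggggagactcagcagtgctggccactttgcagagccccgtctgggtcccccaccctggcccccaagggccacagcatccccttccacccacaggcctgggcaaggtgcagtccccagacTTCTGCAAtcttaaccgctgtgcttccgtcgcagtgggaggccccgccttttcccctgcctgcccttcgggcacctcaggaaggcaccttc
Searched on both strands were TGTGGT and TGCGGT (RUNX-type), GAGGAA (ETS-type), TTGCNNAA and TGANTCA (AP-1-type), and no match overlapped another. Windows of the same length before 35116 RefSeq starts held TTGCNNAA in 9.05% of cases and a RUNX-type letter string in 16.3%. The ICAM3 window shown holds neither RUNX-type string, which says only that these letters are not in these 250 bases. RefSeq lists other ICAM3 starts further into the gene, and the start that gives the transcript read by the probe is unknown.

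ICAM3 lies in a row of genes on chromosome 19 that also holds ICAM1, ICAM4 and ICAM5, and its neighbours were looked up by their order in RefSeq (GRCh38.p14), not by their values. ICAM4, the red cell member of the family, differed by -0.06 (SE 0.14, limma adjusted p = 0.823). RAVER1, an RNA-binding protein gene next to ICAM3, differed by -0.19 (SE 0.17, limma adjusted p = 0.532), and FDX2, a mitochondrial ferredoxin, by -0.44 (SE 0.17, limma adjusted p = 0.147). On the other side, TYK2, a Janus kinase, differed by 0.25 (SE 0.15, limma adjusted p = 0.336) and CDC37, a kinase chaperone, by -0.08 (SE 0.14, limma adjusted p = 0.763). None of these 5 tested neighbours passed the threshold that ICAM3 passed; the differences between ICAM3 and its neighbours were not tested. ICAM5, a neuronal member of the family, was above background on 1 siMM array alone, and ICAM1 on none, so neither was tested.

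**Figure D2:**
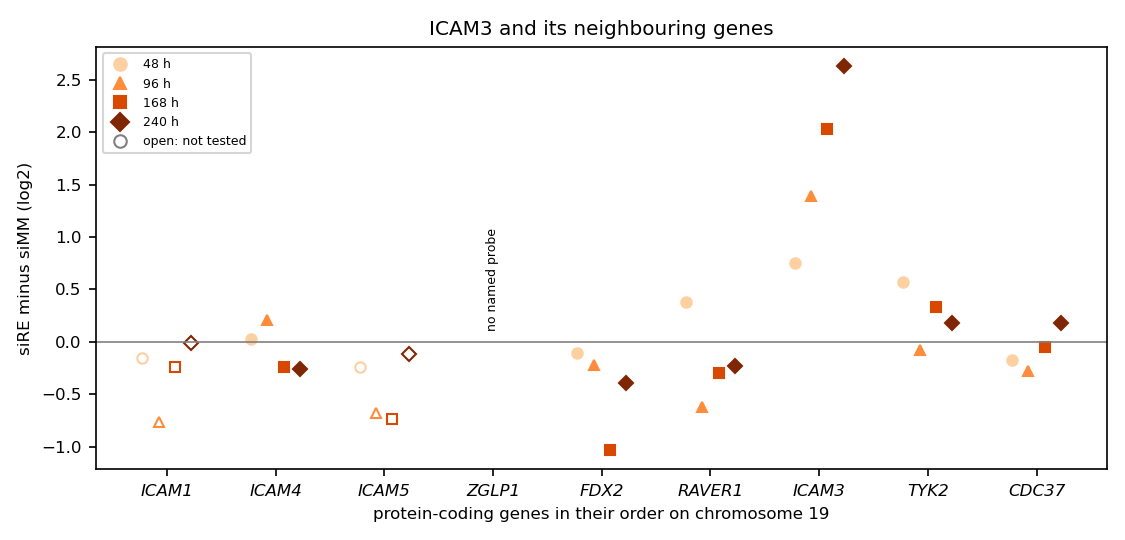
Difference between siRE and siMM (log2) at each of the 4 times, for 8 of the 9 protein-coding genes around ICAM3, in their order on chromosome 19; open symbols are probes that were not tested, and ZGLP1 has no named probe. ICAM3 stands at 0.75, 1.39, 2.03 and 2.63, while ICAM4 lies between -0.26 and 0.21.

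ICAM2, the ligand of the same integrin known from endothelium and resting lymphocytes, was lower in siRE without passing the test. It read 7.27, 7.30, 6.64 and 6.50 in siRE at 48, 96, 168 and 240 h, against 7.54, 7.54, 7.41 and 7.55 in siMM. All 4 siRE arrays lay below all 4 siMM arrays, which 10.1% of all tested probes showed in one direction or the other. The difference was -0.58 (SE 0.16, 95% interval -0.94 to -0.22, limma adjusted p = 0.061), and at single times it was -0.28, -0.24, -0.76 and -1.04. It passed with 3 of the 12 alternative settings: the stricter count of arrays above background (limma adjusted p = 0.0483), an intensity trend and robust prior (0.024), and without the 48 h arrays (0.0481).

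ICAM1, the inflammation-induced ligand, lay between 4.87 and 5.26 in siRE and between 5.07 and 5.62 in siMM. All 8 values were below background, so no fold is given.

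JAM3, a junctional adhesion molecule that binds the JAM2 protein and leukocyte integrins, fell. It read 7.26, 6.75, 5.85 and 5.77 in siRE at 48, 96, 168 and 240 h, against 7.60, 7.66, 7.27 and 7.59 in siMM. The arms do not overlap, although the siRE array of 48 h lay only just below the siMM array of 168 h, and the siRE arrays of 168 and 240 h were below the background cut-off. The mean was 6.41 ± 0.72 in siRE and 7.53 ± 0.18 in siMM, a difference of -1.12 (SE 0.21, 95% interval -1.58 to -0.66, limma adjusted p = 0.00959), which left 45.9% of the siMM signal. From the lowest difference, JAM3 had rank 54 among 8866 genes.

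At single times JAM3 differed by -0.34, -0.91, -1.42 and -1.82. The slope within siRE was -0.195 per day (SE 0.037, limma adjusted p = 0.0221) and within siMM -0.015 per day (SE 0.037, limma adjusted p = 1), while the interaction, at -0.180 per day (SE 0.040), lay just beyond the threshold (limma adjusted p = 0.0574). In RefSeq the gene of NCAPD3, a condensin subunit, overlaps JAM3, and NCAPD3 differed by -0.27 (SE 0.17, limma adjusted p = 0.368). The call of JAM3 ended without the 96 h arrays (-1.19, limma adjusted p = 0.0595), with the 168 h pair left out (-1.02, 0.0906), and with values below the cut-off set to it (-1.08, 0.0546).

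PECAM1, which binds itself between cells and carries inhibitory tyrosine motifs in its tail, was lower in siRE at each time. It read 7.95, 8.11, 7.95 and 7.93 in siRE, against 8.47, 8.80, 8.87 and 8.41 in siMM, at 48, 96, 168 and 240 h. All siRE arrays lay below all siMM arrays. The difference was -0.65 (SE 0.14, 95% interval -0.95 to -0.35, limma adjusted p = 0.0182), which left 63.6% of the siMM signal. It was -0.53, -0.69, -0.92 and -0.48 at single times, and its change per day had a 95% interval of -0.092 to 0.091 (limma adjusted p = 0.999). The siRE arrays stayed between 7.93 and 8.11, while siMM went from 8.47 at 48 h to 8.87 at 168 h and 8.41 at 240 h. The call ended when the 96 h pair was left out (-0.64, limma adjusted p = 0.1), and likewise the 168 h pair (-0.56, 0.153).

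CD47, the surface ligand of SIRPA, rose at the probe for the transcript NM_198793. It read 7.85, 7.69, 8.43 and 8.10 in siRE at 48, 96, 168 and 240 h, against 7.33, 7.27, 7.51 and 7.16 in siMM. The arms do not overlap. The mean was 8.02 ± 0.32 in siRE and 7.32 ± 0.15 in siMM, a difference of 0.70 (SE 0.14, 95% interval 0.38 to 1.02, limma adjusted p = 0.0167), or 1.63-fold. It stood at 0.52, 0.42, 0.92 and 0.94 at single times, and its slope of 0.067 per day did not pass (95% interval -0.021 to 0.155, limma adjusted p = 0.433). The call ended when the 96 h pair was left out (0.79, limma adjusted p = 0.0523), and likewise the 168 h pair (0.63, 0.142).

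The other CD47 probe, annotated to NM_001777, lay between 5.01 and 5.20 in siRE and between 4.82 and 5.12 in siMM, below background on all 8 arrays. The CD47 result therefore rests on 1 probe. The 250 bases before the CD47 start (chr3:108091032-108091281, GRCh38.p14, minus strand, RefSeq) are shown as those of the other member that rose; they hold none of the 5 strings searched and so have no capitals.
CD47: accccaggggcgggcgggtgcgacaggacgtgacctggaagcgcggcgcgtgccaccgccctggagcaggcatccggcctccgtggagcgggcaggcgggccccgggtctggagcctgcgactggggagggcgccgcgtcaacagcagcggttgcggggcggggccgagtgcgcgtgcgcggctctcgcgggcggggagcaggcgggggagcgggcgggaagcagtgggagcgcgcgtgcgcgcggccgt

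CD58, the ligand of CD2, was read by 2 probes annotated to the same transcript. At ILMN_2147517 it read 8.02, 8.28, 8.21 and 8.23 in siRE, against 8.45, 8.55, 8.35 and 8.65 in siMM, at 48, 96, 168 and 240 h. The arms do not overlap there, but the difference of -0.31 did not pass (SE 0.13, 95% interval -0.60 to -0.03, limma adjusted p = 0.184). At ILMN_1785268 it read 8.21, 7.95, 8.22 and 8.35 in siRE and 8.39, 8.02, 8.27 and 8.51 in siMM, a difference of -0.11 (SE 0.13, 95% interval -0.39 to 0.17, limma adjusted p = 0.642). Both probes were lower in siRE at all 4 times and neither passed under any of the 12 alternative settings. SELPLG, the selectin ligand, lay between 5.21 and 5.54 in siRE and between 5.10 and 5.40 in siMM, below background throughout.

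**Figure D3:**
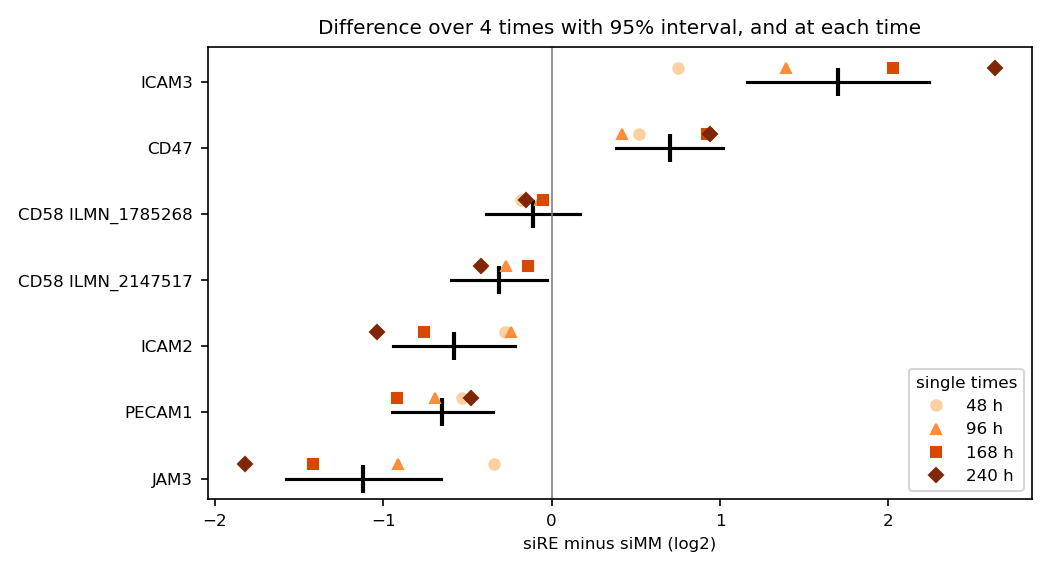
Difference between siRE and siMM (log2) for the 7 tested probes. Bars are the estimate over the 4 times with its 95% interval from limma, and symbols are the differences at single times (1 array against 1). The symbols of ICAM3 and JAM3 spread from 48 h to 240 h in opposite directions, and those of PECAM1 lie between -0.92 and -0.48 in no order of time.

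With 1 array against 1, single times give values without a test. No tested probe of the 9 genes differed by 2-fold or more at 48 h, where 0.592% of all tested probes were that much higher and 0.272% that much lower in siRE. ICAM3 was past 2-fold at 96 h, beside 1.15% of all probes higher, and no member was that much lower, beside 0.558%. All 7 tested probes kept 1 sign of the difference at all 4 times, as did 30.2% of all tested probes. At 168 h ICAM3 (1.99% higher) and JAM3 (1.63% lower) were past it, and at 240 h ICAM3 (3.52% higher) and JAM3 and ICAM2 (4.93% lower). Within the siMM arm none of the 7 probes had a slope on day that passed, and limma called 0 of 14707 probes there, with 271 at an unadjusted p under 0.05. A straight line misses a rise followed by a fall, such as that of ICAM3 in siMM (8.45, 9.31, 9.25 and 8.87). PECAM1 in siMM also rose and then fell (8.47, 8.80, 8.87 and 8.41), so a steady control arm is not shown.

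Genes with the most similar pattern were sought among 8866 genes as those with the smallest root mean square gap between the 4 differences at single times, all read on the same 8 arrays. For ICAM3 these were LAPTM5, found in lysosomal membranes of blood cells (gap 0.150), and S100P, a calcium-binding protein (gap 0.224), where the median gap to all genes was 1.90. LAPTM5 differed by 0.97, 1.45, 1.84 and 2.55 at 48, 96, 168 and 240 h. For JAM3 they were NBL1, a secreted inhibitor of bone morphogenetic proteins (gap 0.114), and PTPRCAP, a partner of the phosphatase PTPRC (gap 0.143, median 1.23). NBL1 differed by -0.46 and -1.07 at 48 and 96 h; at 168 and 240 h its siRE arrays (5.68 and 5.30) were below the cut-off, as were those of JAM3, so the gap between these genes rests partly on values not above background. The same holds for S100P, whose siRE array of 48 h and siMM arrays of 48 and 96 h were below it. For PECAM1 they were THEM6 (gap 0.058) and CCM2, a scaffold protein of endothelial junctions (gap 0.088, median 0.69). For CD47 they were LRP3, a receptor of the LDL receptor family (gap 0.052), and PDZD8, a membrane contact protein of the endoplasmic reticulum (gap 0.068, median 0.82).

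Partner genes of the adhesion molecules were grouped in 5 lists from general knowledge, and 78 of their 122 genes were tested. These lists too were chosen with earlier results of these data known, so their counts are no test of a list. The median difference of all 8866 genes was -0.043, and 626 of them passed. Of all 14707 tested probes, 3.26% passed as higher and 2.77% as lower in siRE, to be read beside each count below. Of the counter-receptors, 6 of 19 listed were tested and none passed in limma (median 0.09, range -0.24 to 0.29). ITGB2, the integrin chain that pairs in the receptors of the ICAM proteins, was 10.93 ± 0.29 in siRE and 10.64 ± 0.42 in siMM (difference 0.29, limma adjusted p = 0.233). ITGB1, the integrin chain of fibronectin and VCAM1 receptors, differed by -0.24 (limma adjusted p = 0.318). SIRPA, the receptor of CD47, differed by 0.18 (SE 0.15, limma adjusted p = 0.514).

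Relatives in the immunoglobulin superfamily moved both ways, with 3 of 17 tested higher and 3 lower (median -0.01). ESAM, an endothelial and platelet adhesion molecule close to the JAM proteins, fell to 5.92 ± 0.57 in siRE, against 7.24 ± 0.15 in siMM (difference -1.32, SE 0.22, limma adjusted p = 0.00561). Its siRE arrays of 168 and 240 h (5.83 and 5.16) were below the cut-off, and with such values set to it the difference was -1.12 (limma adjusted p = 0.0247). CD300A, an inhibitory receptor, changed by -1.09 (SE 0.23, limma adjusted p = 0.0195) and CD99, a molecule of leukocyte passage through vessel walls, by -0.61 (SE 0.15, limma adjusted p = 0.0365). ALCAM, which binds CD6 and itself, rose by 0.67 (SE 0.14, limma adjusted p = 0.0165). CD84, a homophilic receptor of the SLAM family, and NECTIN1, a nectin of cell junctions, stayed below background throughout siMM. They differed by 0.71 and 0.69 (limma adjusted p = 0.00977 and 0.0408), and were at least 1.31-fold and 1.03-fold higher in siRE. With values below the cut-off set to it, the differences were 0.38 and 0.12 and did not pass (limma adjusted p = 0.0918 and 0.547). NECTIN1 was above the cut-off on only 2 siRE arrays. When time was not a block, the calls of CD300A and CD99 ended (limma adjusted p = 0.201 and 0.0581).

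Of the enzymes that build the sugars of SELPLG or modify CD47, 3 of 17 tested were higher and 0 lower (median -0.12). FUT4, the fucosyltransferase that makes the CD15 sugar of myeloid cells, rose to 9.73 ± 0.38 in siRE, against 8.58 ± 0.08 in siMM (difference 1.16, SE 0.15, limma adjusted p = 0.00138). A second FUT4 probe rose by 1.87 (SE 0.19, limma adjusted p = 0.000344). SLC35A1, the Golgi carrier of CMP-sialic acid, rose by 0.65 (SE 0.16, limma adjusted p = 0.0384), and C1GALT1C1, the chaperone of core O-glycan synthesis, by 0.57 (SE 0.14, limma adjusted p = 0.0405). When time was not a block, the calls of SLC35A1 and C1GALT1C1 ended (limma adjusted p = 0.0909 and 0.054).

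Of the cytoplasmic partners, 5 of 23 tested were higher and 0 lower (median 0.06). RASGRP2, the exchange factor that activates RAP1 and so integrins, rose by 1.38 (SE 0.13, limma adjusted p = 0.000243), with 1.54, 1.16, 1.40 and 1.42 at 48, 96, 168 and 240 h. SYK, a tyrosine kinase downstream of integrins and SELPLG, rose by 1.29 (SE 0.16, limma adjusted p = 0.00108). The actin crosslinkers ACTN1 and ACTN4, known to bind tails of ICAM proteins, rose by 1.00 (SE 0.16, limma adjusted p = 0.00344) and 0.74 (SE 0.13, limma adjusted p = 0.00713). PTPN6, a phosphatase recruited by PECAM1 and SIRPA, rose by 0.78 (SE 0.16, limma adjusted p = 0.0144). The linkers EZR and MSN, which join ICAM proteins and SELPLG to actin, stood at -0.06 and 0.15 (limma adjusted p = 0.81 and 0.594).

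Of the regulators, 1 of 15 tested was higher and 1 lower (median 0.06). CEBPA, a factor of granulocyte development, rose by 0.85 (SE 0.13, limma adjusted p = 0.00401). IRF1, an interferon-response factor known to act on ICAM1, stayed below background throughout siRE. It differed by -0.84 (limma adjusted p = 0.0325), and was at least 1.15-fold lower than in siMM. With values below the cut-off set to it, the difference of IRF1 was -0.2 and did not pass (limma adjusted p = 0.33). Of the 16 partner genes past the threshold, FUT4, RASGRP2, SYK, ACTN1 and CEBPA kept the call under all alternative settings, and the other 11 lost it under at least 1; all 11 lost it without the arrays of 168 h.

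**Figure D4:**
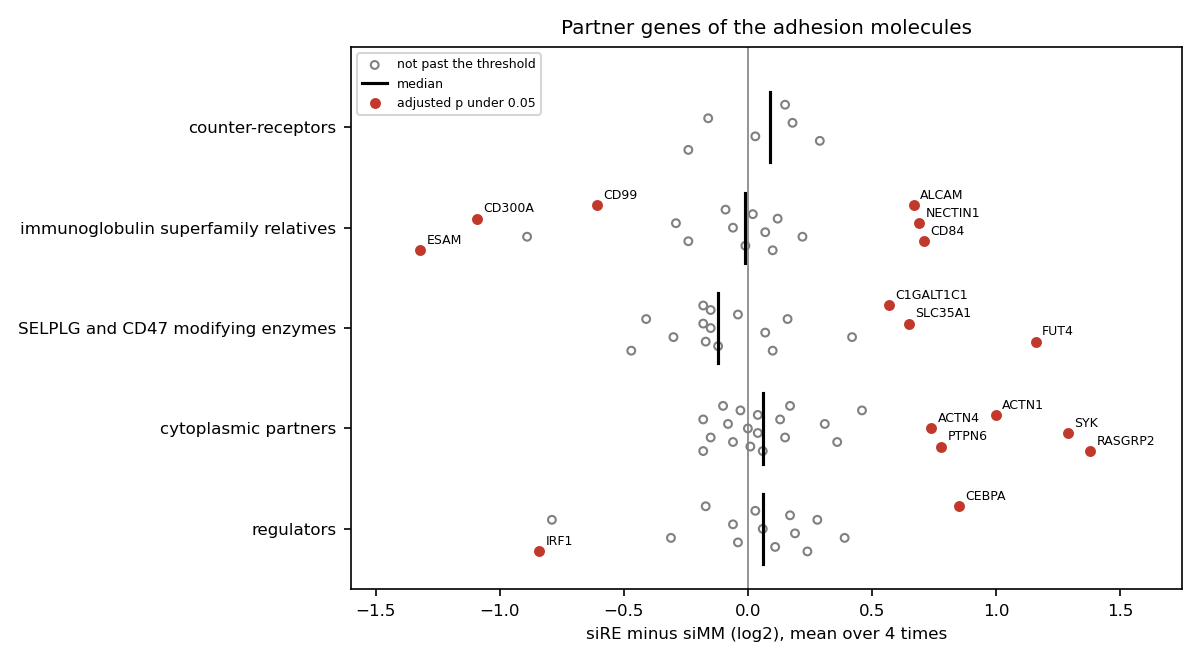
Difference between siRE and siMM (log2, mean over 4 times) for the 78 tested partner genes, 1 point per gene at its brightest probe, by list. Filled points passed the threshold and are named, and the vertical bar is the median of a list, between -0.12 and 0.09. Called cytoplasmic partners and sugar enzymes lie to the right of 0, and called immunoglobulin relatives on both sides.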

How the data were processed

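RNA of 8 Kasumi-1 samples was read on Illumina bead arrays. The deposited values are normalized log2 signals, read as log2 from their range of 3.89 to 14.36; whether that is plain log2 or a variance-stabilised scale is unknown. The authors' tool was lumi, per the submitters' processing notes; nothing else of their processing was known here. After sorting, the arrays differed by no more than 0.0235, as quantile normalization leaves them; no scaling was added, and a shift shared by most transcripts would not be visible. A non-normalized table with 16 value columns was left out, since its column names match no sample label.

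Of 47230 probes, 30112 had 1 gene symbol, 8 several and 17110 none in the platform annotation. Of the probes with 1 symbol, 30073 had an Entrez number that is in RefSeq. The background cut-off of 5.90 is the mode of the values (5.22) plus the 90th percentile of how far values fall under that mode. A probe above it on at least 2 arrays was tested (14707). Tests used limma 3.58.1 in R 4.3.3 with Benjamini-Hochberg adjustment over all tested probes: siRNA with time point as a block (3 residual, 8.17 prior degrees of freedom), siRNA by day with the block (2 residual), and a line in day per arm (4 residual). The pairing by time comes from the labels; deviations from the arm means correlated at 0.3733, 0.2907, 0.2112 and 0.0716 between same-time arrays and from -0.3187 to 0.1974 otherwise. In simulated data with 14707 probes the comparison of siRE with siMM recovered 56% of changes of 1 and 97% of changes of 2 (log2), and the interaction 0% of slopes of 0.2 and 34% of slopes of 0.4 per day. The simulated comparison called 158 probes, against 887 in the real data, so recovery in the real data may differ from these shares. The simulated noise came from the fit without the interaction, so it includes real changes of the difference with time. The shares for slopes may therefore be too low; in the real data the ICAM3 slope of 0.230 per day was called.

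A gene in a list is its brightest tested probe. "At least" folds set the dim arm to the cut-off. Named are all members, every partner gene past the threshold (otherwise the 2 smallest p of a list), the 2 nearest patterns per called member and genes chosen by position; SIRPA, EZR, MSN and the promoter motifs were chosen after the data were seen. Members and lists were chosen with earlier results of these data known. The sample titles carry letters of unstated meaning, and the labels name no batch.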

Additional observations from a re-analysis of the deposited data

Results flagged for a closer look

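Of 20 groups of 4 arrays (10 probes in each arm), 2 held an array far from the other 3; chance alone gives about 1 in 20. ICAM2 in siMM was lowest at 168 h with 7.41, where the other siMM arrays lay at 7.54 and 7.55. PECAM1 in siRE was highest at 96 h with 8.11, where the others lay between 7.93 and 7.95. Both gaps are small beside the differences between the arms, of -0.58 and -0.65.

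The difference of ICAM3 between siRE and siMM changed with time, by 0.230 per day (SE 0.040, limma adjusted p = 0.0223), and was larger at each later time, from 0.75 at 48 h to 2.63 at 240 h. The call ended under 5 of the 12 alternatives, whose limma adjusted p ranged from 0.000253 to 0.382, while the slope stayed between 0.206 and 0.251 per day.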

How the results depend on the processing

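The direction of all 7 member differences was the same under each of the 12 alternatives. Without the replicate block (time point), 532 probes passed, 317 higher and 215 lower, the interaction called 18, the ICAM3 slope stood at 0.23 (limma adjusted p = 0.382), and all 4 member calls held. With values below the cut-off set to it, 451 passed, 267 higher and 184 lower, the interaction called 9, JAM3 stood at -1.08 and the ICAM3 slope at 0.23, both past the threshold no longer. Called by an intensity trend and robust prior were 656 lower probes, 389 interactions, ICAM2 (-0.58) and the JAM3 slope (-0.18). With 4 arrays above the cut-off required, ICAM2 (-0.58), the JAM3 slope (-0.18) and 228 interactions passed; with the 99th percentile the JAM3 slope (-0.18) and 254 interactions did. Leaving out the arrays of 1 time gave 251 to 1169 probes, 162 to 577 higher and 89 to 592 lower, 38 to 393 interactions, and 1 to 5 member genes past the threshold, with ICAM3 the 1 left without the 96 h or the 168 h arrays. Differences then ranged from -0.69 to -0.43 for ICAM2, -1.38 to -0.89 for JAM3, -0.71 to -0.56 for PECAM1 and 0.62 to 0.79 for CD47, and slopes from 0.206 to 0.251 for ICAM3 and -0.212 to -0.151 for JAM3. At 1.5-fold, 730, 1454, 2322 and 4185 probes differed at 48, 96, 168 and 240 h, against 127, 251, 533 and 1242 at 2-fold. Leaving out a time leaves fewer arrays and degrees of freedom. With 8 arrays and no replicate of a time, the number of arrays limits the precision, and nothing can be said of ICAM1 and SELPLG below background.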

Other observations

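Among the relatives in the immunoglobulin superfamily, 2 of 17 tested genes passed the siRNA by day interaction, which 0.918% of all tested probes passed; both were named after their values were seen. CD96, a nectin receptor known from T and NK cells and from leukaemic blasts, differed by -0.27, -0.24, -0.77 and -2.27 between siRE and siMM at 48, 96, 168 and 240 h (limma adjusted p = 0.0411 for the interaction). Its mean was 7.41 ± 0.87 in siRE and 8.30 ± 0.14 in siMM (SD, n = 4 arrays each), a difference that did not pass (limma adjusted p = 0.089). Without the 240 h arrays its slope was -0.106 per day, against -0.25 per day with them, and the call ended (limma adjusted p = 0.78); it passed under 8 of the 12 alternatives (limma adjusted p between 0.00166 and 0.78).

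CD48, a ligand of lymphocyte receptors, read 6.94, 6.36, 5.86 and 5.11 in siRE, against 6.09, 6.01, 6.18 and 6.05 in siMM. The siRE arrays of 168 and 240 h were below the background cut-off and the siMM arrays only just above it, so the size of the late difference is not measured. The interaction stood at -0.223 per day (limma adjusted p = 0.0241), and at -0.131 per day with values below the cut-off set to it, which did not pass (limma adjusted p = 0.227). It passed under 7 of the 12 alternatives (limma adjusted p between 0.0104 and 0.227).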
